A study of Mus musculus with 19 samples.

Results

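The 9 genes described here encode the receptor of leukemia inhibitory factor (LIF), the kinases and the transcription factor that carry its signal, and known targets of that factor. They were chosen by symbol as genes of this pathway: Lifr and Il6st (receptor chains), Jak1 and Jak2 (kinases), Stat3 (the transcription factor), and Socs3, Pim1, Pim3 and Gbx2 (targets). All 9 were present among the 23420 genes counted in each of 19 mouse RNA-seq libraries. Levels are given in CPM, read counts scaled to a common library size of gene counts after trimmed-mean (TMM) normalization.

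LIF binds LIFR, which pairs with the shared receptor chain gp130, the product of Il6st. The receptor-bound Janus kinases then phosphorylate STAT3, which enters the nucleus and switches on its targets, among them Socs3, whose product feeds back to shut the receptor down. Mouse embryonic stem cells (ESC) rely on this pathway to stay in the naive, pre-implantation state, whereas epiblast stem cells (EpiSC), which correspond to the later, primed epiblast, do not need LIF.

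The study asked whether induced pluripotent stem cells (iPSC) of the non-permissive strains NOD/ShiLtJ (NOD) and WSB/EiJ (WSB), from which ESC-like cells do not form in LIF and serum, reach an ESC-like state in 2iS medium. ESC/LIF is serum medium with LIF, and 2iS is ESC/LIF with an inhibitor of GSK3B and an inhibitor of MEK. The 14 iPSC libraries came from fibroblasts reprogrammed with a lentivirus carrying Oct4, Klf4, Sox2 and Myc, and the vector was not removed. They held 2 male and 2 female NOD clones in 2iS, 2 male and 2 female WSB clones in 2iS, 2 male and 2 female clones of the permissive strain 129S1/SvImJ (129) in ESC/LIF, and the same 2 male 129 clones at a later passage after transfer to 2iS. The 3 ESC lines were male, 1 each of NOD, WSB and 129, grown in ESC/LIF with GSK3B and MEK inhibitors. The 2 EpiSC lines were male, 1 of NOD and 1 of 129 (129/Sv background), grown in EpiSC conditions. Each library was 1 line or clone in 1 medium, so n counts libraries, and the 12 iPSC libraries used below came from 10 clones. State and medium cannot be told apart between EpiSC and the other cells, and fewer cells of a type and less RNA per cell cannot be told apart in any of these bulk samples.

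The source names of the samples gave another condition than the titles in all 19 libraries, and titles were used. Counts of 4 Y-linked genes contradicted the sex in 0 of 19 titles. Depth was low: without the NOD male iPSC, 17 libraries held 92996 to 226794 counts on genes, 1.15 to 1.74% of their uniquely aligned read pairs. The 2 NOD male iPSC stood apart, with 430173 and 567432 counts, 5.59 and 5.62% of aligned pairs. They were left out of the comparisons of states, strains and media, a choice that the study also made. Genes that share exon sequence with a gene on the opposite strand took 60.3 to 76.1% of gene counts in the 17 libraries but 37.6 and 38.1% in the NOD males, while 24.4% of 21737 annotated genes are of this kind. Naive markers separated EpiSC from the other cells, with 11 of 11 tested markers higher in ESC and in iPSC. Each had at most 7 counts over the 2 EpiSC and passed the filter only through ESC or iPSC, which tilts these calls. Of all genes tested 15.1% were called in ESC and 28.3% in iPSC. The summed level of 10 primed markers was 452 to 646 CPM in EpiSC, 291 to 704 in ESC and 116 to 407 in the 12 iPSC. Of the 2 primed markers tested 1 was higher in ESC than in EpiSC, and in iPSC 1 was higher and 1 lower. The summed level of 10 fibroblast markers was 1912 to 2785 CPM in ESC, 284 to 1274 CPM in EpiSC and 417 to 1075 CPM in the 12 iPSC, so ESC lay above the others, while EpiSC and iPSC overlapped. Of the 4 fibroblast markers tested 1 (Col1a1) was higher in ESC than in EpiSC. In iPSC 3 were lower than in ESC and 2 were lower than in EpiSC. Col1a2, Thy1, Postn and Tnc were at 0 in all 12 iPSC, but Lum had 13 counts there against 1 in ESC, and Dcn 2 against 0. Most counts of the list in the 12 iPSC were of Fn1 (902) and Vim (64). The part of these markers in the ESC values was not tested.

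The 9 genes together had only 18 to 111 counts in each of the 17 libraries, and a count of 3 corresponded to 15.0 to 37.6 CPM. Only Jak1, Socs3, Pim3 and Gbx2 passed the filter on low counts (68.4 CPM or more in at least 2 libraries, here on gene counts without TMM scaling) and were tested there. On that unscaled measure Jak1 reached the minimum in all 17 libraries, Gbx2 in 7, and Socs3 and Pim3 in 2 each. In Socs3 these were 1 ESC and 1 iPSC, and in Pim3 both were 129 iPSC in ESC/LIF. Both genes thus entered the tests only through groups in which they were high, and their calls against EpiSC, or against 129 clones in ESC/LIF for Pim3, are tilted by the filter. Lifr, Il6st, Jak2, Stat3 and Pim1 are given by their counts.

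Per kilobase of annotated exon, the median level over the 17 libraries was highest for Gbx2 at 27.4 CPM and Jak1 at 16.5 CPM. The targets Pim1, Socs3 and Pim3 followed at 11.9, 11.6 and 9.85 CPM per kilobase. Stat3 at 4.19, Il6st at 3.61 and Lifr at 1.11 were lower, and Jak2 had a median of 0. The ranges overlapped broadly, from 4.58 to 112 CPM per kilobase for Gbx2 and from 12.4 to 62.3 for Jak1. The order of means also differed between groups, but not in each library. In EpiSC the mean of Jak2, 5.64 CPM per kilobase, was above those of Pim1 (3.79), Pim3 (2.94) and Socs3 (1.00). These means rest on 7, 3, 2 and 1 counts, and in NOD EpiSC Jak2 (1.15) was below Pim3 (2.39) and Socs3 (2.0). In NOD male iPSC the mean of Socs3 was highest and that of Gbx2 was 3.82. In male clone 35 Pim3 (28.2) was above Socs3 (25.55). For Gbx2 this rank includes exon sequence shared with another gene: of its 2177 exon bases (GENCODE annotation of GRCm38, chromosome 1, 89927956 to 89931179, minus strand), 946 bases or 43.5% overlap exons of D130058E05Rik on the plus strand. Pim1 (chromosome 17, 29490753 to 29496112, plus strand) shares 488 bases, 14.5%, with the antisense gene Gm26885, while Stat3 shares 72 bases with Stat5a, Jak1 shares 4 bases with Raver2, and the other members share none. The strand setting of the counting is not given in the sources used here, so reads of such pairs cannot be told apart. The library kit marks strand, and whether the setting matched the kit, or was the same for the NOD males as for the other 17 libraries, was not tested. Were it the opposite setting in any library, a count there would stand for reads from the other strand of the gene. This bears on the values of all 9 genes, in the 17 libraries of the main comparisons as well as in the NOD males.

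**Figure D1:**
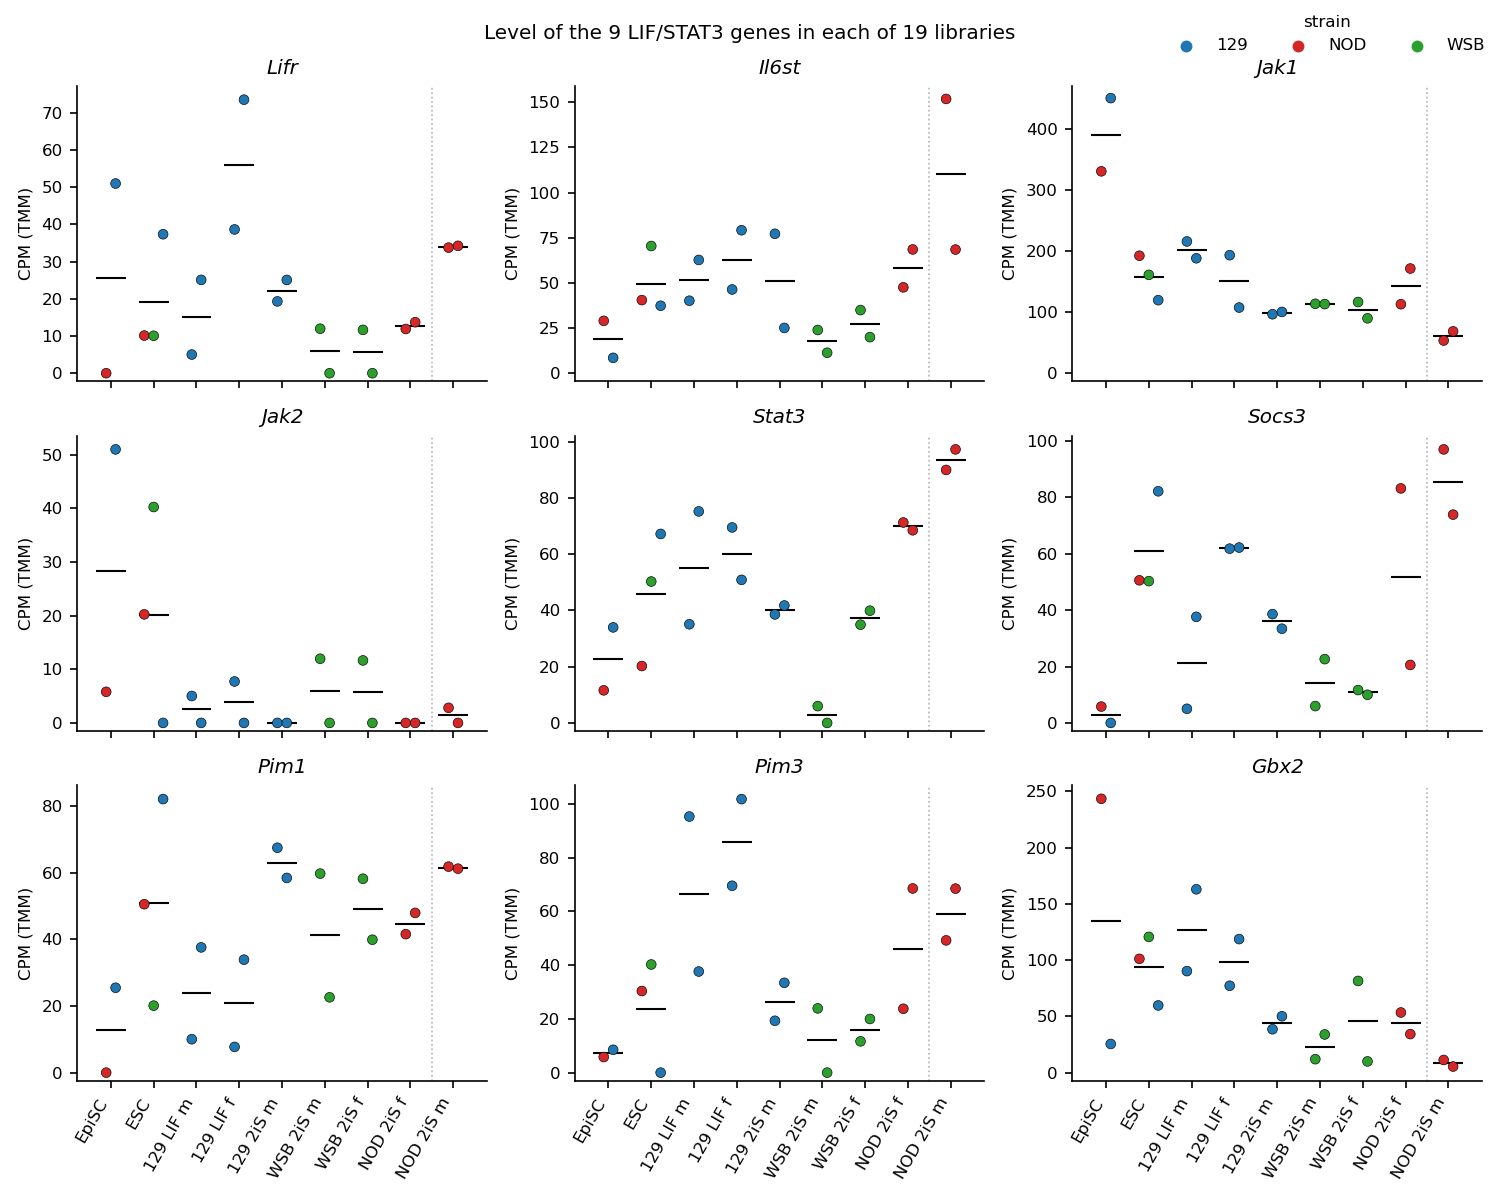
Level of each of the 9 genes in CPM (TMM, linear axis from 0) in every library, 1 point a library colored by strain, with a bar at the mean of each group; m and f are male and female clones, and the dotted line sets off the NOD male iPSC. Jak1 is highest in the 2 EpiSC (330 and 450 CPM), Socs3 is at 0 and 5.80 CPM there, and Gbx2 is at 243 CPM in NOD EpiSC but 25.5 CPM in 129 EpiSC.

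The receptor genes were at the edge of detection in all states. Lifr (chromosome 15, 7090614 to 7197489, plus strand), the chain that binds LIF, had 0 counts in NOD EpiSC and 6 in 129 EpiSC. It had 1, 1 and 5 counts in the NOD, WSB and 129 ESC, and 0 to 13 in the 12 iPSC. The groups overlapped, with a rate ratio of 1.02 for ESC against EpiSC (95% interval 0.293 to 3.66; exact, on summed counts and gene library sizes, covering counting error only) and 1.03 for iPSC against EpiSC (0.428 to 3.02). Within the iPSC, Lifr was at 21 counts in the 4 libraries of 129 clones in ESC/LIF, 13 of them in female clone 8, and at 3 counts in the 4 WSB clones.

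Il6st (chromosome 13, 112464070 to 112510086, plus strand) had 5 counts in NOD EpiSC and 1 in 129 EpiSC, against 4, 7 and 5 counts in the NOD, WSB and 129 ESC. In CPM these were 29.0 and 8.49 in EpiSC and 40.5, 70.4 and 37.3 in ESC, so all 3 ESC lay above both EpiSC. The 12 iPSC ranged from 11.3 to 79.1 CPM with a median of 43.2 and overlapped EpiSC. The rate ratio was 2.33 for ESC (0.864 to 7.25) and 2.26 for iPSC (0.988 to 6.35) against EpiSC, and both intervals included 1.

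Jak1, which encodes the kinase bound to gp130, was the member with the most counts and was lower in ESC and in iPSC than in EpiSC. It is on chromosome 4 (101152367 to 101265282, minus strand). Its counts were 57 and 53 in the NOD and 129 EpiSC, which are 330 and 450 CPM. The ESC had 192 CPM in NOD, 161 in WSB and 119 in 129. The 12 iPSC had 89.8 CPM at the lowest, 113 at the median and 216 at the highest, so every ESC and iPSC library lay below both EpiSC.

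Against EpiSC (390 ± 84.7 CPM, SD, n = 2), Jak1 fell by 1.31 on the log2 scale in ESC (158 ± 36.5 CPM, n = 3; SE 0.37; edgeR quasi-likelihood test, Benjamini-Hochberg adjusted p = 0.0218). It fell by 1.51 in iPSC (135 ± 44.0 CPM, n = 12; SE 0.28; edgeR adjusted p = 0.000453). These comparisons share the EpiSC libraries. Of all 3986 genes tested, 15.1% were called in either direction in ESC and 28.3% in iPSC, and the median log2 fold change was 0.06 and 0.10. In CPM of uniquely aligned read pairs the separation remained, with 3.50 and 3.57 in EpiSC, 1.48 to 1.78 in ESC and 1.23 to 2.78 in iPSC. The call in iPSC stayed past the threshold in all 11 alternative fits. The ESC call was lost without the WSB ESC (adjusted p = 0.0584), the 129 ESC (0.102) or the 129 EpiSC (0.145), and with all of these kept it was lost without the filter (0.0818), with ESC and EpiSC fitted alone (0.0737) and with the NOD males added (0.126).

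Jak2 (chromosome 19, 29251828 to 29313080, plus strand), the related Janus kinase, had 1 and 6 counts in the NOD and 129 EpiSC and 2, 4 and 0 in the NOD, WSB and 129 ESC. It had 0 counts in 8 of the 12 iPSC and 5 counts in all 12. Relative to gene counts the iPSC rate was 0.134 of that in EpiSC (0.0336 to 0.492) and 0.180 of that in ESC (0.0434 to 0.707). Of the 7 EpiSC counts 6 came from the 129 line. In the fit without the filter on low counts, the iPSC difference from EpiSC had an edgeR adjusted p of 0.0495 and that from ESC of 0.206.

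Stat3 (chromosome 11, 100885098 to 100939540, minus strand) had 2 and 4 counts in the NOD and 129 EpiSC, against 2, 5 and 9 in the NOD, WSB and 129 ESC. In CPM these were 11.6 and 34.0, against 20.2, 50.3 and 67.2. The NOD ESC lay within the EpiSC range. The 12 iPSC ranged from 0 to 75.2 CPM with a median of 40.8. The rate ratio was 2.33 for ESC (0.864 to 7.25) and 2.19 for iPSC (0.959 to 6.18), intervals that include 1, so a difference of Stat3 mRNA between states was not detectable at this depth.

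Among the 9 genes, only the start region of Socs3, the feedback inhibitor, held the STAT-binding letters TTCNNNGAA (a palindrome, read on both strands) within 250 bases before to 50 after a RefSeq start (GRCm38.p6; 11 starts matched the 9 genes). The same letters occur in 2726 of 32851 such windows, 8.30%. The match begins 154 bases before the start. It is shown in capitals in the exon-free stretch at chr11:117969452-117969616, minus strand, because it is the only match among the members. This stretch lies inside the GENCODE span of Socs3 (117966079 to 117970047, minus strand). Upstream here refers to the RefSeq start, not to the GENCODE start of the gene.

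Socs3 upstream: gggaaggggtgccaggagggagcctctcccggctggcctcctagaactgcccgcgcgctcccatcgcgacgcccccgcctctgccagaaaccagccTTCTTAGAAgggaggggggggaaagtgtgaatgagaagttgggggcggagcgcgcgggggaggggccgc

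The match is a description of the sequence, and no match in the other windows says only that these letters are not in them.

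Socs3 (chromosome 11, 117966079 to 117970047, minus strand) had 1 count in NOD EpiSC and 0 in 129 EpiSC. It had 5, 5 and 11 counts in the NOD, WSB and 129 ESC, which are 50.6, 50.3 and 82.1 CPM. The 12 iPSC ranged from 5.01 to 83.2 CPM with a median of 28.0, so all ESC lay above both EpiSC, and iPSC spanned nearly the whole range. The ratio of rates was 18.3 for ESC against EpiSC (21 against 1 counts; interval 2.94 to 757) and 9.97 for iPSC against EpiSC (53 against 1; 1.71 to 401).

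In the edgeR fit Socs3 was higher in ESC than in EpiSC (fitted log2 fold change 3.84, SE 1.29, adjusted p = 0.0473). It was not past the threshold in iPSC (2.98, SE 1.22, adjusted p = 0.0724). The ESC call was lost without any single ESC or EpiSC library (adjusted p 0.0615 to 0.240), with DESeq2 (0.0663), with the NOD males added (0.102) and with each iPSC clone counted once (0.0592). The iPSC difference passed with aligned read pairs as library size (0.0308), without the filter (0.0290) and with strain as a covariate (0.0284). Between iPSC and ESC the fitted difference was -0.87 (95% interval -2.17 to 0.44, edgeR adjusted p = 0.481).

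Pim1 and Pim3 encode serine/threonine kinases that promote survival and self-renewal. Pim1 had 0 and 3 counts in the NOD and 129 EpiSC, and 5, 2 and 11 in the NOD, WSB and 129 ESC. The 12 iPSC ranged from 7.72 to 67.5 CPM (median 40.7), overlapping the 0 and 25.5 CPM of EpiSC. The rate ratio was 5.23 for ESC (18 against 3 counts; 1.53 to 27.7) and 3.83 for iPSC (61 against 3; 1.25 to 19). Without the filter on low counts the edgeR adjusted p was 0.134 and 0.117.

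Pim3 (chromosome 15, 88862186 to 88865726, plus strand) had 1 count in each EpiSC, and 3, 4 and 0 counts in the NOD, WSB and 129 ESC. The 12 iPSC ranged from 0 to 102 CPM with a median of 28.7, against 5.80 and 8.49 CPM in EpiSC. The ratio of rates was 7.15 for iPSC against EpiSC (76 against 2 counts; 1.91 to 60.1) and 3.05 for ESC (7 against 2; 0.581 to 30.1). Neither difference passed the edgeR threshold (adjusted p = 0.107 in iPSC and 0.505 in ESC). In iPSC it passed without the filter (0.0228) and with aligned read pairs as library size (0.0396).

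Gbx2, a homeobox gene whose expression sustains naive self-renewal, was far apart in the 2 EpiSC lines. It had 42 counts in NOD EpiSC and 3 in 129 EpiSC, which are 243 and 25.5 CPM, a rate ratio of 9.38 (3.00 to 47.3). The ESC had 101 CPM in NOD, 121 in WSB and 59.7 in 129. The 12 iPSC ranged from 9.98 to 163 CPM with a median of 51.8. Against EpiSC the fitted log2 fold change was -0.63 in ESC (SE 0.74, edgeR adjusted p = 0.613) and -1.17 in iPSC (SE 0.59, edgeR adjusted p = 0.143). Without the NOD EpiSC these became 1.84 and 1.29 (adjusted p = 0.298 and 0.421), so the direction rested on that line. Without the 129 EpiSC the iPSC value was -1.98 (adjusted p = 0.0334).

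Of the 4 tested members Jak1 and Socs3 thus passed between ESC and EpiSC (15.1% of all genes tested), Jak1 between iPSC and EpiSC (28.3%) and none between iPSC and ESC (6.22%). Since the filter let Socs3 and Pim3 in through ESC or iPSC, these counts are a description of single genes and not of the 9 members. In the comparison of iPSC with ESC, unadjusted p ran from 0.182 to 0.495 (edgeR), and the 95% intervals were -0.80 to 0.40 for Jak1, -0.73 to 2.72 for Pim3 and -1.76 to 0.67 for Gbx2. Without the filter 0 of 9 members passed between iPSC and ESC in edgeR, beside 600 of all 16808 genes. Jak2 had an unadjusted edgeR p of 0.015 in that fit, the only one of 9 below 0.05. With the filter DESeq2 called 0 of the 4 tested members, beside 236 of 3983 genes. With the iPSC in 2iS alone, a fit added after the data were seen, Jak1 had -1.72 against EpiSC (adjusted p = 9.88e-05) and Gbx2 passed the threshold at -1.85 (0.0207).

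**Figure D2:**
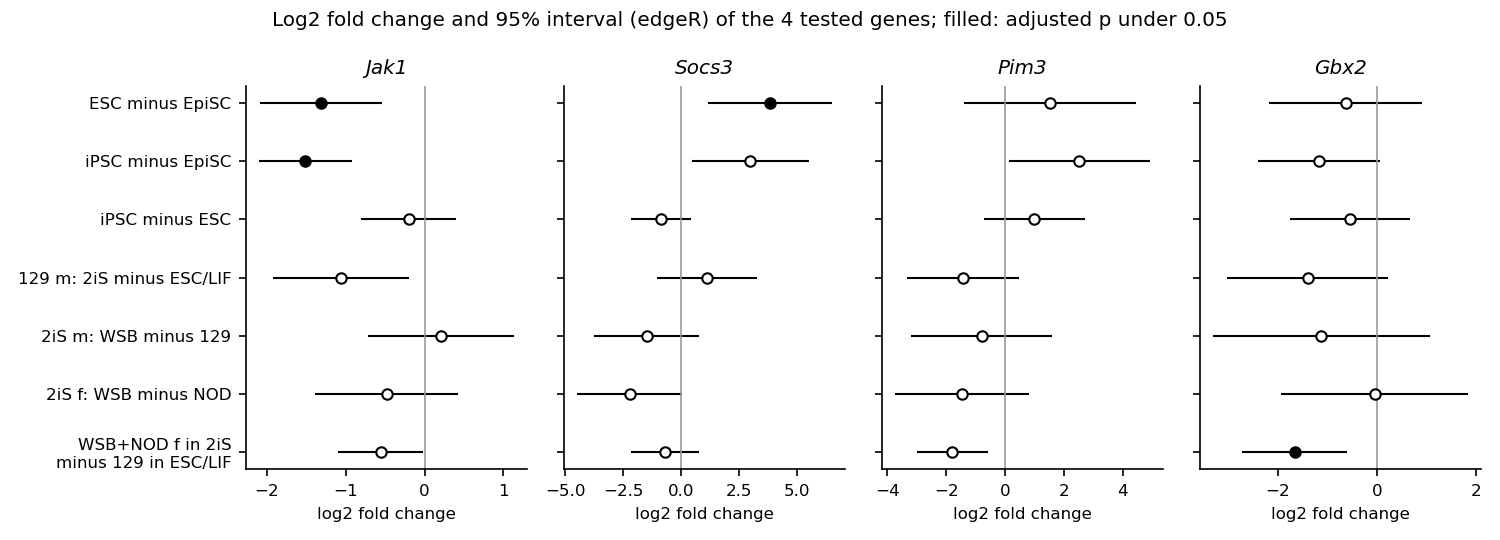
Fitted log2 fold change (points) with 95% interval (lines) from edgeR for the 4 members that passed the filter, in 7 comparisons without the NOD male iPSC; filled points have an adjusted p under 0.05 and each panel has its own axis. Filled points are Jak1 in both comparisons with EpiSC, Socs3 in ESC against EpiSC, and Gbx2 in the comparison of non-permissive strains in 2iS with 129 in ESC/LIF.

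The pair of male 129 clones grown in both media addressed the effect of 2iS itself, although medium and passage cannot be told apart. Jak1 was at 216 and 188 CPM in ESC/LIF (clones 1 and 17) and 96.5 and 100 CPM in 2iS, so the media did not overlap. Gbx2 was at 90.2 and 163 CPM in ESC/LIF and 38.6 and 50.1 CPM in 2iS, also without overlap. Pim3 was at 95.3 and 37.6 CPM in ESC/LIF and 19.3 and 33.4 in 2iS, whereas Pim1 had 2 and 3 counts in ESC/LIF and 7 and 7 in 2iS. In clone 17 Pim1 was at 37.6 CPM in ESC/LIF and 58.5 CPM in 2iS, from too few counts to tell a difference. In clone 1 Pim1 went the other way from Jak1, Gbx2 and Pim3, also from few counts. Without the filter on low counts, the fitted log2 fold change of Pim1 between media was 1.70 (edgeR adjusted p = 0.926). In clone 17 Pim3 had 3 counts in ESC/LIF and 4 in 2iS, too few to tell a difference.

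None of the 4 tested members passed the threshold between media, where 0.803% of all genes did. The edgeR values were -1.06 for Jak1 (interval -1.92 to -0.19, unadjusted p = 0.0189, adjusted p = 0.374), -1.40 for Gbx2 (-3.02 to 0.23, adjusted p = 0.632), -1.42 for Pim3 (-3.32 to 0.49, adjusted p = 0.725) and 1.13 for Socs3 (-1.04 to 3.29, adjusted p = 0.856). Jak1 was the only one of the 4 with an unadjusted p under 0.05. DESeq2 gave an adjusted p to Jak1 alone (0.793). With the clone as a block in the fit of 17 libraries, added after the data were seen, 31 genes were called in place of 32 and again none of the 4 members. In the 4 libraries fitted alone the block lowered the number from 192 to 102. Jak1 and Gbx2, the members tested there, did not pass with the block (edgeR adjusted p = 0.179 and 0.153).

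Strain was compared within 2iS and within sex. The male WSB clones were derived in 2iS, while the male 129 clones were derived in ESC/LIF and moved to 2iS at a later passage. Between these males strain cannot be told apart from derivation medium and passage. In males, WSB clones 12 and 25 had 114 and 113 CPM of Jak1, against 96.5 and 100 CPM in 129 clones 1 and 17. Stat3 had 1 and 0 counts in these WSB clones and 4 and 5 in the 129 clones, and was not among the genes tested. Of the tested members 0 of 4 differed, beside 0.627% of all genes. The edgeR values were 0.21 for Jak1 (interval -0.72 to 1.13), -1.48 for Socs3 (-3.75 to 0.79), -0.79 for Pim3 (-3.20 to 1.62) and -1.12 for Gbx2 (-3.30 to 1.06), with unadjusted p from 0.189 to 0.647.

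In females, WSB clones 23 and 28 had 11.6 and 9.98 CPM of Socs3, against 83.2 and 20.6 CPM in NOD clones 7 and 52. The WSB clones were lower without overlap, but from 1 count each. Stat3 was at 34.9 and 39.9 CPM in WSB and 71.3 and 68.5 CPM in NOD. Again 0 of 4 tested members differed, beside 0.602% of all genes, with unadjusted p from 0.0547 to 0.959. Socs3 had a fitted value of -2.22 (interval -4.49 to 0.05, edgeR adjusted p = 0.517), and the intervals of Jak1 (-1.38 to 0.42), Pim3 (-3.74 to 0.81) and Gbx2 (-1.93 to 1.84) included 0. DESeq2 gave an adjusted p to Jak1 and Gbx2 between the males (0.997 for both) and to Jak1 between the females (0.993).

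The 6 WSB and NOD female clones in 2iS were also set against the 4 129 clones in ESC/LIF, a comparison in which strain and medium cannot be told apart. Gbx2 was at 37.5 ± 26.9 CPM (SD, n = 6) in the former, with a range of 9.98 to 81.5, and at 112 ± 38 CPM (n = 4), 77.2 to 163, in the latter. The groups overlapped in WSB clone 23 alone. Gbx2 was lower in the non-permissive clones (log2 fold change -1.65, SE 0.51, edgeR adjusted p = 0.0477), the only one of 4 tested members called, beside 8.25% of all genes. The call is marginal: it was lost in 9 of 10 fits without a single library (adjusted p up to 0.214), with DESeq2 (0.0958), with DESeq2 size factors in edgeR (0.0502) and with aligned read pairs as library size (0.0803), and it remained without WSB clone 23 (0.0262).

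For Pim3 the fitted value had the same sign and did not pass the threshold. Its 2 libraries past the filter were both of the 129 group of this comparison. It was at 24.6 ± 23.3 CPM in the 6 non-permissive clones and 76.0 ± 29.2 CPM in the 4 129 clones (-1.79, SE 0.59, edgeR adjusted p = 0.0649), and passed without the filter (0.00725) and with these groups fitted alone (0.00735). The 2 male 129 clones in 2iS had 38.6 and 50.1 CPM of Gbx2 and 19.3 and 33.4 CPM of Pim3, within the range of the non-permissive clones for both genes. Jak1 (-0.56, edgeR adjusted p = 0.218) and Socs3 (-0.68, edgeR adjusted p = 0.660) did not pass.

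The NOD male iPSC held most of the counts of several members. Clones 3 and 35 had 108 and 38 counts of Il6st, against 8 and 10 in NOD female clones 7 and 52. Stat3 had 64 and 54 counts against 12 and 10, and Socs3 had 69 and 41 against 14 and 3. Lifr had 24 and 19 against 2 and 2, Pim1 44 and 34 against 7 and 7, and Pim3 35 and 38 against 4 and 10. By contrast, Jak1 had 38 and 38 counts against 19 and 25, Gbx2 8 and 3 against 9 and 5, and Jak2 2 and 0 against 0 and 0.

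Il6st, Stat3 and Pim1 passed the filter only in the fit that held the NOD males, so their values below are tilted by the filter. What the values show depends on the library size. Relative to gene counts, Jak1 fell by 1.21 (SE 0.37, edgeR adjusted p = 0.0131) and Gbx2 fell by 2.28 (SE 0.83, edgeR adjusted p = 0.0393) in NOD males, 2 of 7 tested members, beside 30.9% of all 4641 genes called in either direction. The other 5 had values from 0.37 (Pim3) to 0.94 (Il6st) and did not pass. Relative to uniquely aligned read pairs the Jak1 call turned direction, to 1.21 higher (edgeR adjusted p = 0.00351). The Gbx2 call was lost, with a value of 0.05 (SE 0.87, edgeR adjusted p = 0.972). Il6st, Stat3, Socs3, Pim1 and Pim3 were 2.80 to 3.36 higher, all past the threshold. On that scale 3433 of the 4641 genes tested passed. The median of all genes was 2.56 there, so these 5 lay above the median and Jak1 and Gbx2 below it. The same held relative to gene counts, where the median was 0.15. The Jak1 call was also lost without male clone 3 (adjusted p = 0.0980) or female clone 52 (0.202) and without the filter (0.0965), and the Gbx2 call was lost without any of the 4 libraries (0.0598 to 0.263).

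**Figure D3:**
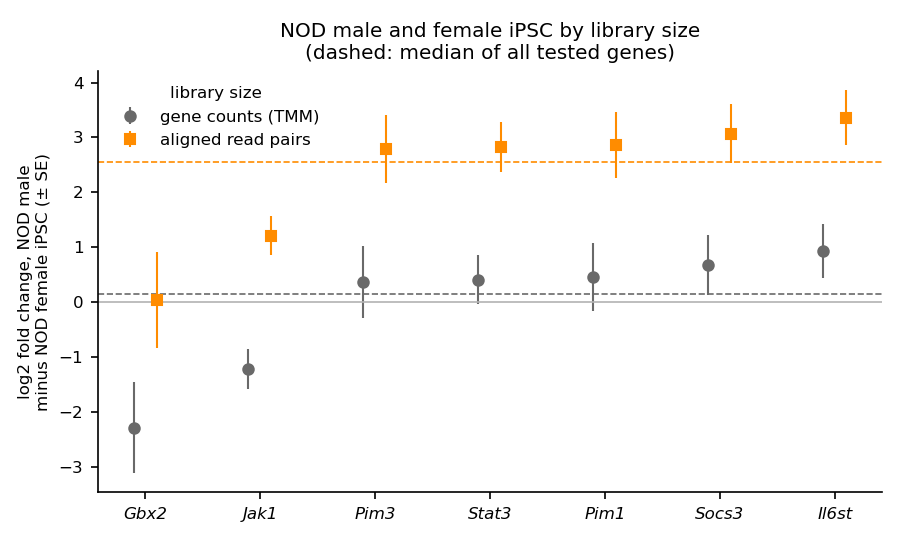
Log2 fold change of NOD male against NOD female iPSC (points, ± SE, edgeR) for the 7 members tested, with gene counts (circles) or uniquely aligned read pairs (squares) as library size; dashed lines mark the median of all 4641 genes on each scale. Jak1 and Gbx2 lie below the median on both scales, at -1.21 and -2.28 or at 1.21 and 0.05, and the other 5 lie above it. Of these Il6st, Stat3 and Pim1 passed the filter only with the NOD males in the fit.

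The other genes of the pathway were as sparse. None of 7 ligands and none of 4 other receptors of the family passed the filter in any fit. Lif itself had 3 counts in the ESC, 2 in the EpiSC and 7 in the 12 iPSC. Of 8 other kinases and STATs 2 were tested, and Stat2, which acts in interferon signaling, was higher in ESC than in EpiSC (log2 fold change 2.17, edgeR adjusted p = 0.014) and, with a log2 fold change of -1.47, lower in iPSC than in the ESC libraries (edgeR adjusted p = 0.0135). Of 14 inhibitors and phosphatases 3 were tested in the 17 libraries and none passed between states (edgeR), with Ptpn11 in ESC and Pias2 in iPSC, named after their values were seen, at an unadjusted p under 0.05 against EpiSC. Of 3 adaptors 2 were tested, and Gab1, a docking protein downstream of gp130, was higher than in EpiSC in ESC (3.66, edgeR adjusted p = 0.000205) and in iPSC (3.97, edgeR adjusted p = 5.22e-06). Stat2 had 8 counts and Gab1 3 over the 2 EpiSC, so both passed the filter only through ESC or iPSC. Their calls against EpiSC are tilted by the filter, beside 15.1% of all genes called in ESC and 28.3% in iPSC. Between iPSC and ESC 6.22% of all genes were called.

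Of 10 other known STAT3 targets 4 were tested. Klf4 and Tfcp2l1, transcription factors of the naive network, were higher than in EpiSC in ESC (7.22 and 5.97, edgeR adjusted p = 0.000346 and 0.000635) and in iPSC (8.23 and 5.90, adjusted p = 4.08e-06 and 0.000123). They had 0 and 1 counts in EpiSC, against 49 and 99 in ESC and 457 and 410 in iPSC. Myc was higher in iPSC than in EpiSC (3.09, adjusted p = 0.000888) and than in ESC (4.50, adjusted p = 0.000109). Klf4 and Myc are also on the reprogramming vector, and reads of the vector and the gene cannot be told apart in these counts. With at most 7 counts in EpiSC these 3 genes could pass the filter only through ESC or iPSC. The 2 of 4 tested targets higher in ESC and 3 of 4 in iPSC than in EpiSC are thus tilted toward that direction. Of all genes tested 15.1% were called in ESC and 28.3% in iPSC against EpiSC. Between media and between strains 0 of 11 tested genes of these lists passed in edgeR, with 3 at an unadjusted p under 0.05 between media, 2 in WSB against 129 males, 0 in WSB against NOD females and 1 in non-permissive against 129 clones. Of all genes tested 0.803, 0.627, 0.602 and 8.25% passed in these comparisons, in the same order. DESeq2 was not examined for the genes of these lists. In NOD males against females Gab1 (0.92, edgeR adjusted p = 0.0497) and Klf5 (2.12, edgeR adjusted p = 0.036) were higher relative to gene counts. Klf5 passed the filter only in the fit that held the NOD males, so its call is tilted by the filter. Of all 4641 genes tested there 30.9% were called in either direction.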

How the data were processed

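Per the labels, RNA of each line or clone was made into TruSeq Stranded mRNA libraries and sequenced as paired reads. The authors trimmed reads with Trimmomatic, aligned them to GRCm38/mm10 with TopHat 2.1.1 and deposited raw read counts per gene from HTSeq (intersection-nonempty mode). The strand setting is not given in the sources used here. The deposited counts were used as they stand, and read pairs on no gene or on several genes entered only the number of uniquely aligned pairs (6082886 to 16307859 per library).

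Members and gene lists were chosen with earlier results of these data known. All 9 members are named, and other pathway genes are given as counts, with values for those past the threshold. Counts were compared with edgeR 4.0.16 under R 4.3.3, using TMM, filterByExpr, glmQLFit and glmQLFTest, with adjustment over all genes tested and a Benjamini-Hochberg adjusted p under 0.05, and single-gene adjusted p-values are from edgeR unless DESeq2 (1.42.0) is named. States were fitted over 17 libraries in 3 groups, iPSC comparisons over the same 17 in 8 groups, and NOD males over 19 libraries in 9 groups. Scripts were tested on simulated data. Rate ratios and their 95% intervals are exact and cover counting error only. A floor of 3 counts per library was used.

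A planned list of genes with a like pattern needed a median count of 20, which 0 members reached. Replicate pairs differed beyond sampling noise, so no library was counted as a repeat. Same-numbered 129 clones in both media are the same clone, which is where the pairing comes from; the correlation of their deviations was 0.06 over 3986 genes. Alternatives were DESeq2, its size factors, aligned pairs as library size, no filter, single libraries left out, strain as a covariate, the NOD males added, groups fitted alone, clone as a block (4 libraries), the conditions of the source names, iPSC in 2iS alone, each iPSC clone once (without the male 129 clones in 2iS), and clone as a block in the fit of 17 libraries. The last 3 were chosen after seeing the data.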

Additional observations from a re-analysis of the deposited data

Results flagged for a closer look

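Jak1 in WSB iPSC in 2iS had 1 clone flagged as apart from the others: clone 28 was at 89.8 CPM, while the other 3 lay between 113 and 116 CPM. Clone 28 had 9 counts, against 19, 10 and 10 in clones 12, 23 and 25, too few to tell a difference. Jak2 was at 2.81 CPM in NOD male clone 3, from 2 counts, and at 0 in the other 3 NOD iPSC. These were 2 of 27 combinations of gene and group examined for a library apart. Chance gives about 1 in 20 for continuous values, a rate that does not hold for counts at or near 0. A group with only 1 library above 0, as for Jak2, is always flagged.

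Gbx2 differed between ESC and EpiSC in opposite directions in the NOD and the 129 lines. In NOD it was at 101 CPM in ESC and 243 CPM in EpiSC, and in 129 at 59.7 CPM in ESC and 25.5 CPM in EpiSC. With 1 library for each, this difference was not tested. The EpiSC lines also came from different laboratories and were at different passages, so strain cannot be told apart from these.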

How the results depend on the processing

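The low counts of the members limit these results, since 5 of 9 did not pass the filter in the comparisons of states, strains and media. Of single-gene values under all alternatives but the leaving out of libraries, 176 kept their direction and side of the threshold, 10 were no longer past it, 13 came to pass it and 4 turned direction. Where a single library was left out, the numbers were 125, 23, 1 and 7. The causes of the changes were not tested, except that fitting groups alone or without a library uses fewer samples.

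With aligned read pairs as library size, Jak1 turned to 0.10 in iPSC against ESC, Gbx2 to 0.14 in WSB against NOD females, and Jak1 and Gbx2 to 1.21 and 0.0473 in NOD males against females, where 3433 genes passed (3390 higher and 43 lower) in place of 1436 (392 higher and 1044 lower). On that scale the median of all genes moved to 0.29 in ESC and 0.62 in iPSC against EpiSC, 0.34 in iPSC against ESC, 0.20 in WSB against NOD females, 0.12 in non-permissive against 129 clones and 2.56 in NOD males. The split of calls moved with it, from 273 higher and 328 lower to 338 and 200 in ESC against EpiSC, from 448 and 681 to 1081 and 325 in iPSC against EpiSC, from 40 and 208 to 197 and 129 in iPSC against ESC, from 13 and 11 to 15 and 6 in WSB against NOD females, and from 135 and 194 to 172 and 119 in non-permissive against 129 clones. Jak1 stayed lower than EpiSC on both scales. DESeq2 called 84 higher and 978 lower in NOD males and 5 and 7 in WSB against NOD females. Values also turned where a single library was left out. Gbx2 then ranged from -1.44 to 1.84 in ESC and from -1.98 to 1.29 in iPSC against EpiSC (highest without NOD EpiSC), and from -2.08 to 0.81 in WSB against NOD females (0.28 without NOD clone 7 and 0.81 without WSB clone 28). Socs3 ranged from -0.0867 to 2.62 between media (lowest without clone 1 in ESC/LIF) and from -1.29 to 0.0631 in non-permissive against 129 clones (highest without clone 17). Pim3 ranged from -0.22 to 1.28 in NOD males (lowest without female clone 7). Of the 11 values that turned, only Jak1 in NOD males with aligned read pairs passed the threshold.

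Numbers of genes past the threshold moved as follows. For ESC against EpiSC (601), 329 passed with the groups alone, 207 with NOD males added, and 255 to 556 without a single library. For iPSC against EpiSC, 1874 passed without the filter and 528 to 868 without a single library. For iPSC against ESC (248), 600 passed without the filter and 92 to 163 without a single library. Between media (32), 87 passed without the filter, 192 with the 4 libraries alone, 102 with these and the clone as a replicate block, and 2 to 14 without a single library. In the fit of 17 libraries 31 passed with the block. It changed no call among the 4 members there, nor of Jak1 and Gbx2 in the 4 libraries, where Socs3 and Pim3 were not tested. For WSB against 129 males (25), 109 passed without the filter, 270 with the groups alone, and 0 to 6 without a single library (edgeR; 300 at an unadjusted p under 0.05 where it was 0, without 129 clone 1). For WSB against NOD females (24), 12 passed with DESeq2, 92 without the filter, 97 with the groups alone, and 2 to 12 without a single library. For non-permissive against 129 clones (329), 178 passed with DESeq2, 559 with the groups alone, and 118 to 255 without a single library. For NOD males (1436), 913 to 1104 passed without a single library.

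With the conditions of the source names in place of the titles, 0 genes differed between ESC and EpiSC, 10 between iPSC and EpiSC and 0 between iPSC and ESC (edgeR; 271, 508 and 153 at an unadjusted p under 0.05; DESeq2 was not run on these), and 985 between media.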
